A study of Bos taurus with 10 samples.

Results

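The surroundings of the CG island of bta-mir-202, the bovine gene of the microRNA miR-202, were taken as all CG sites that any tissue covered by 8 reads or more on chromosome 26 between 25900000 and 26080000 of the bovine assembly UMD3.1. The island itself runs from 25987649 to 25988586, a length of 938 bp. The window held 360 of the 468619 CG sites of the series, where the cytosines on both strands of a CG count as separate sites, and 25 of the 360 lay within the island and 335 outside it. The island was chosen because its mean level was lower in testis than in the other 9 tissues of these same libraries, so its own values are given as a description without a test. The question was whether the lower level of testis went on beyond the edges of the island, over sites read on the same strand in testis and in at least 1 other tissue, here called strand-matched sites.

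In mammals, methyl groups are placed mainly on the cytosine of a CG pair and are copied to the new strand when a cell divides, so that both strands usually carry the mark. CG islands are stretches rich in CG pairs, often at the start of a gene, and most of them stay unmethylated. miR-202 is a microRNA, a short RNA that binds messenger RNAs and lowers their output, and is known for its expression in the gonads. The testis holds germ cells beside somatic cells, and the methylation of germ cells is reset during their development. In the annotation of the later assembly ARS-UCD2.0, used here for gene order only, MIR202 lies between *LOC101903854*, with *ADAM8*, *TUBGCP2* and *ZNF511* beyond it, and *UTF1*, a gene of pluripotent and germ cells. The position of MIR202 in UMD3.1 was not given in the sources used here, so the place of the sites relative to its exon is not stated.

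Reduced representation bisulfite sequencing (RRBS) was applied to 1 library from each of 10 tissues of the Hereford cow L1 Dominette 01449 or of relatives of that cow. The adult tissues were skeletal muscle near ceasarian, whole testes, uterus intercaruncular, nucleated blood cells and the gland at day 90 of lactation, the juvenile ones mammary/parenchyma, frontal cortex, abomasum and ileum, and the rumen came from a fetus of day 180. Testis and rumen were male and the other tissues female, so tissue, sex, stage and animal cannot be told apart. With 1 library for each tissue there were no replicates, and the spread among the 9 other tissues is the only spread that can be given. No tissue was sorted into cell types, no gene expression was measured in these files, and the labelled tissues could therefore not be checked against markers. The reads summed over cytosines ranged from 16125651 in abomasum to 40089443 in testis, and the median coverage per cytosine from 10 reads in abomasum to 27, with 14 in testis. Between 109 CG sites (ileum) and 183 (lactating gland) of the window were read in a tissue, and 149 in testis.

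RRBS reads both ends of fragments cut at CCGG by *MspI*, so the sites fall in short stretches with long gaps between them. The sequences of the stretches that carry the comparison were put together from the bases around each deposited cytosine, with 0 positions given different bases over 2778 bases, and are shown 5′ to 3′ on the forward strand of UMD3.1 with each CG in capitals. The first is the island fragment read in all 10 tissues and the second the island stretch read in testis alone. The other sequences are the closest fragment on the left that testis shared with other tissues, a fragment on the left at the low levels of an unmethylated island, the fragment of the next island on the right, and the fragment beyond it.

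Island, all tissues, chr26:25988165-25988216: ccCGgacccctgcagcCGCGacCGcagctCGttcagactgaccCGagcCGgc
Island, testis alone, chr26:25988071-25988104: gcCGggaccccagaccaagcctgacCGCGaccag
Nearest on the left, chr26:25984964-25985015: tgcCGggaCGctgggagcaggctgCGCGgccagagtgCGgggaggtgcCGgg
Unmethylated stretch on the left, chr26:25972929-25972973: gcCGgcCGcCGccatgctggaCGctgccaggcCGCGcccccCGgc
Second island on the right, chr26:26009382-26009434: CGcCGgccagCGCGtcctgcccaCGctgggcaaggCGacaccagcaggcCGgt
Beyond the second island, chr26:26013884-26013932: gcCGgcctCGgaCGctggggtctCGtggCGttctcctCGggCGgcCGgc

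The shared island fragment is 46 bp from cut to cut, with 6 strand-matched sites on the forward strand from 25988167 to 25988208, and the same 20 testis reads cover all of them. The closest shared fragment on the left is 45 bp from cut to cut, and that of the second island 46 bp. Sites of one fragment share their reads and are not independent of each other.

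Within the island, testis was lower than every other tissue at 6 of the 6 strand-matched sites. Its level was 80 % at 25988167, 70 % at 25988181, 60 % at 25988183, 70 % at 25988187, 65 % at 25988194 and 70 % at 25988208, each from 20 reads. The 95 % Wilson interval was 58.4 to 91.9 % for the highest of these and 38.7 to 78.1 % for the lowest. All intervals given here cover counting error only, since copies of a molecule made by PCR were not told apart. At 25988167 the other tissues ran from 89.4 % in rumen to 100 % in abomasum and lactating gland. At 25988183, the lowest testis site of the fragment, they ran from 88.6 % in skeletal muscle to 100 % in frontal cortex. Over the 6 sites the mean was 69.2 % in testis and 88.1 % in abomasum, 91.9 % in skeletal muscle, 92.4 % in frontal cortex, 92.9 % in rumen, 93.2 % in uterus, 93.5 % in mammary parenchyma, 93.9 % in ileum, 94.8 % in nucleated blood cells and 95.2 % in lactating gland. The 9 other tissues thus lay within a narrow band, and the mean difference of testis from them was -23.7 points.

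Testis levels were lower still at the island sites that no other tissue covered. Testis had 39.4 % at 25988073, 42.4 % at 25988096 and 24.2 % at 25988098, each from 33 forward reads, with a mean of 35.4 %. At 25988213 on the forward strand, 0 of 11 reads were methylated, which allows a level of up to 27.3 % (3 counts of 11). This site is the inner C of the CCGG that ends the shared fragment. The position at the end of a fragment can be filled in when the library is made, and its part in the 0 was not tested. Over all 10 testis sites the mean was 52.1 %, and 57.9 % without 25988213. Summed over these sites, 118 of 230 testis counts were methylated, or 51.3 %. The same read counts once at each site it covers, so no interval is given for this sum. The other tissues had means of 88.1 % to 95.1 %, each over all its island sites. Those means rest on other sites than the testis mean, so the strand-matched difference is the smaller and the like-for-like one.

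**Figure D1:**
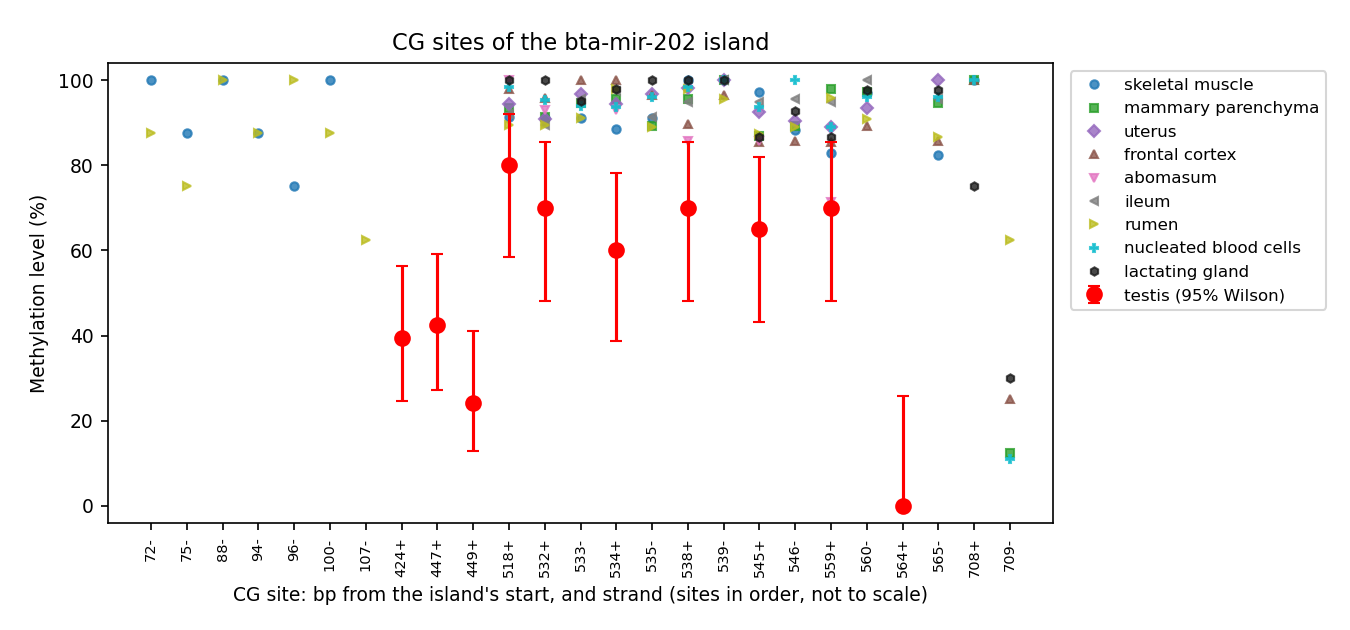
Methylation level (%) at the 25 CG sites of the island in order along it, with the distance from the island's start in bp and the strand under each site. Red points are testis with 95 % Wilson intervals (n = 1 library) and the other markers the 9 other tissues. Testis lay between 60 and 80 % at the 6 sites shared with other tissues, below each of them, and between 0 and 42.4 % at the 4 sites read in testis alone.

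No CG site of any tissue had 8 reads within 2 kb of either edge of the island, so where the lower level ends on either side could not be located more closely. The nearest sites on the left were read outside testis alone, from 25985496 to 25985532, 2117 bp from the edge. Their means were 76.2 % in mammary parenchyma, 84.3 % in skeletal muscle, 85.3 % in lactating gland, 92.5 % in uterus, 93.4 % in frontal cortex and 96.9 % in nucleated blood cells. On the right, 2414 bp from the edge, the site at 25991000 had 0 % in skeletal muscle and mammary parenchyma and 8.33 % in lactating gland. The next sites, from 25991936 to 25991981, averaged 10.6 % in rumen and 7.69 % in lactating gland. At the first sites read, the tissues named for each side were thus highly methylated on the left and averaged low levels on the right. The right rests on few sites and tissues, with up to 33.3 % in rumen, and testis was read at neither place.

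Of the 335 sites outside the island, 139 were read in testis, 91 of them strand-matched and 48 in testis alone, and 196 were not read in testis. Of the 196, 126 were read in 1 tissue, 86 of them in abomasum, and 70 in 2 or more. The strand-matched sites numbered 67 on the left and 24 on the right, and 34 of the 91 were read in all 10 tissues. They formed 7 groups, 5 on the left and 2 on the right, the closest 2636 bp from the left edge and 20799 bp from the right edge.

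**Figure D2:**
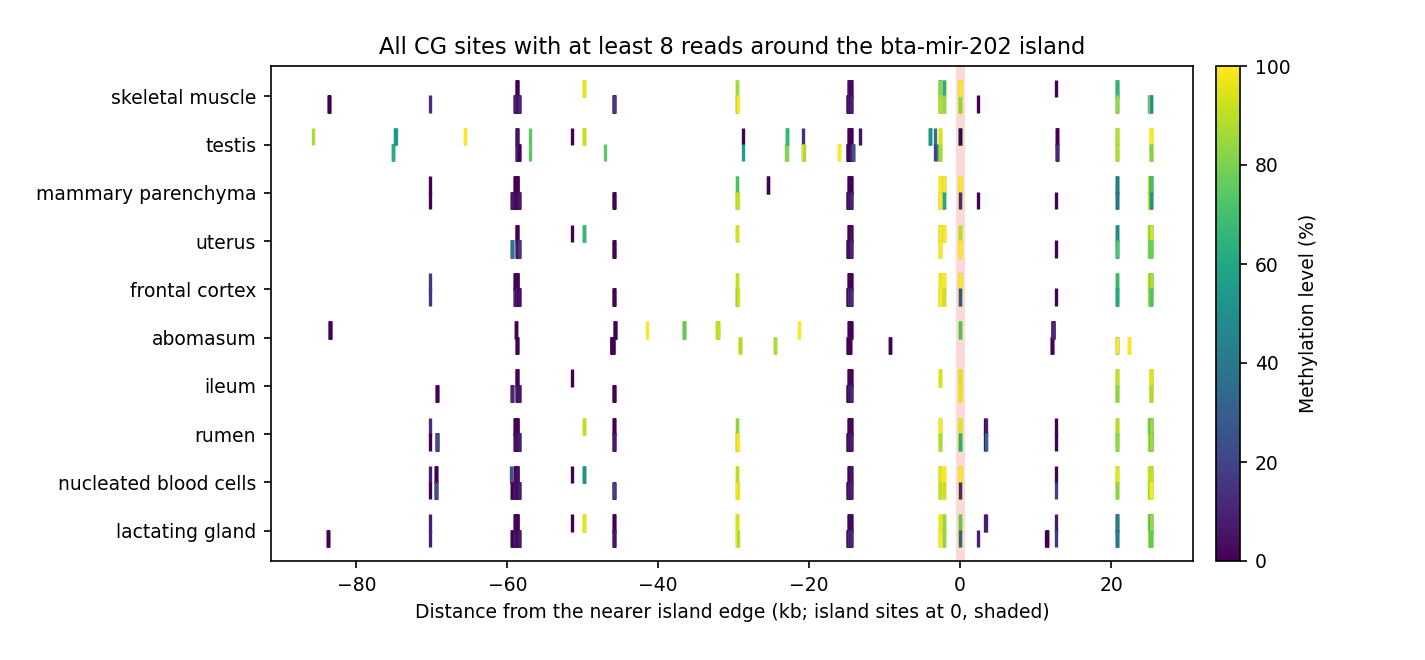
Level (colour, %) of each CG site with at least 8 reads by its distance in kb from the nearer edge of the island, for 10 tissues (rows, 1 library each; upper ticks forward strand, lower ticks reverse strand). Island sites are drawn at 0 within the shaded band. The sites form narrow groups separated by empty stretches, and no tissue has a site within 2 kb of the island.

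No group outside the island had a mean fall of the island's size. Of the 91 strand-matched sites, 0 were called lower in testis in any pair of tissues, while over the whole genome 10.4 % of 106390 strand-matched sites were called lower in at least 1 pair. Conversely 5 of the 91, or 5.49 %, were called higher in at least 1 pair, against 2.37 % over the genome. With at least 20 reads this order was turned, with 1.82 % of 55 sites against 2.83 %. A call needed Fisher's exact test on the reads (two-sided) with a Benjamini-Hochberg adjusted p, or q, below 0.01 over all sites of the genome read in both tissues, and a difference of at least 25 points. With single libraries it compares 2 libraries and not 2 conditions. The minimum of 25 points lies above the island's mean fall of 23.7 points, so calls alone could miss a fall of that size. At an unadjusted p below 0.05 by Fisher's exact test, 8 of the 727 combinations of site and tissue were lower in testis and 53 higher. By size alone, 0 of the 727 were lower by 25 points or more and 71 were higher by as much. The shares over the genome at these cutoffs were not computed. The combinations are not independent, since sites of a fragment share reads and each testis level enters several pairs. In every pair available, 0 sites were called lower and 0 higher, against 0.603 % and 0.0733 % over the genome. For description, 3 of the 6 strand-matched island sites would be called lower in at least 1 pair by the same cutoffs, which the choice of the island already used.

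Not every site outside could have shown a fall of the island's size. At 53 of the 91 sites the other tissues averaged at most 10.1 %, so a fall of 23.7 points was not possible there. At the remaining 38 sites they averaged at least 29.8 %. There testis lay above their mean at 32 sites and below it at 6, with differences between -8.51 and 50.2 points and a median of 11.1. For a further comparison the mean of the others and the fall of 23.7 points were taken as exact, and sites share reads within fragments. On this basis the lower end of the testis Wilson interval lay above the mean of the others less 23.7 points at 33 of the 38 sites. At the other 5 a fall of that size lies within the testis interval. Of these, 4 are reverse-strand sites of the shared fragment closest to the island on the left, at 25984989, 25984991, 25985002 and 25985013, where the lower end of the interval was 62.1 to 64.0 % and the mean of the others less 23.7 points was 68.1 to 71.8 %. The fifth is 26009394 on the forward strand, in the second island on the right. These sites were named after their values were seen.

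**Figure D3:**
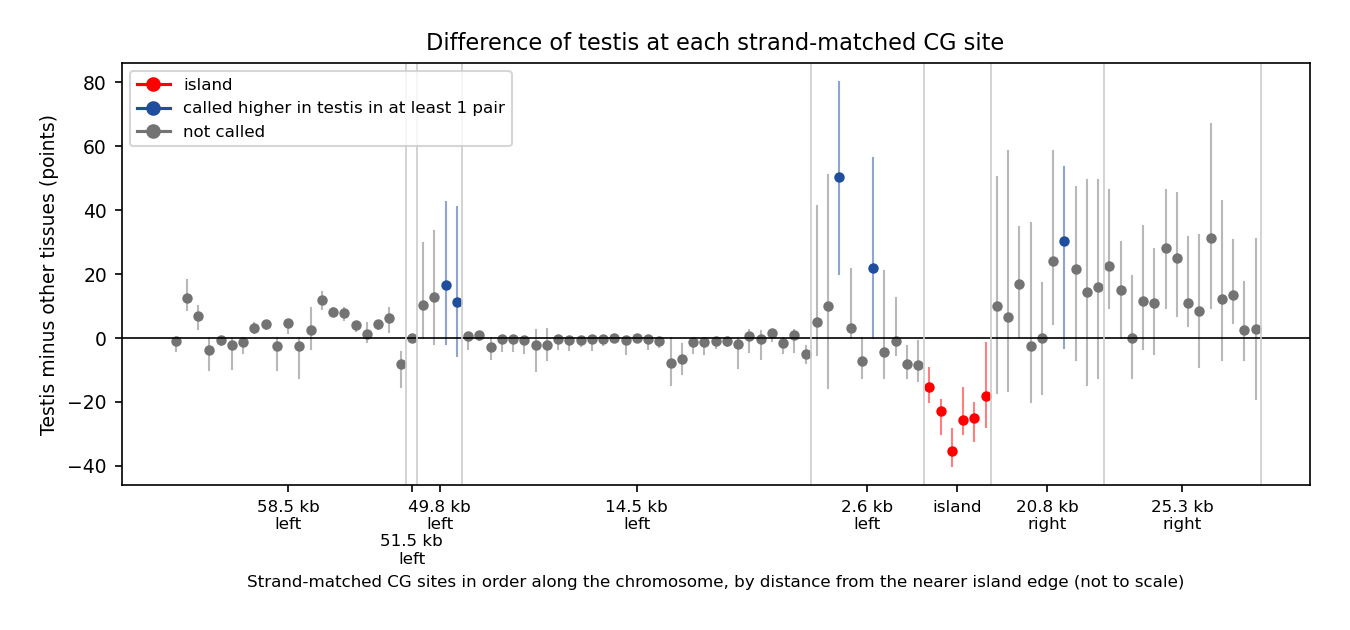
Difference in level (points) between testis and the mean of the other tissues at the 97 strand-matched sites, in order along the chromosome with the distance of each group in kb. Vertical lines run from the difference to the highest tissue to the difference to the lowest one (1 library per tissue). The 6 island sites (red) lie between -35.4 and -15.2 points, and outside the lowest difference is -8.51 points.

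The closest shared fragment on the left, 25984967 to 25985013, was highly methylated in testis. Its mean over 10 sites was 90.3 % in testis, from 15 to 19 reads a site. The other tissues had 66.0 % (skeletal muscle), 84.2 % (frontal cortex), 86.4 % (uterus and nucleated blood cells), 87.1 % (mammary parenchyma), 87.3 % (rumen), 91.8 % (lactating gland) and 95.6 % (ileum, 4 sites), and abomasum was not read. Over the sites each of them shared with testis, lactating gland lay above testis, by 1.49 points, and the other 7 tissues below it. For frontal cortex and mammary parenchyma this order leans on 25984973 reverse, where they had 0 and 4.55 % and testis 80 %. For uterus, nucleated blood cells and ileum it leans on 25984990 forward. They had 43.6, 56.2 and 88.2 % there, and testis 100 %. Testis was above the mean of the others at 5 of the 10 sites and below it at 5. At the other 4 reverse-strand sites its differences were between -8.51 and -4.26 points. Within the island testis was the lowest of 10. At the 3 sites nearest to the island the level of testis was 86.7 % at 25985013 on the reverse strand (Wilson interval 62.1 to 96.3), 87.5 % at 25985002 on the reverse strand (64.0 to 96.5) and 94.7 % at 25985001 on the forward strand (75.4 to 99.1). The other tissues had medians of 100, 95.5 and 97.2 % at these sites, and the differences of testis from their mean were -8.51, -8.00 and -1.07 points. The first 2 are the sites of this fragment at which testis was below every other tissue, by less than the width of its own interval. Neither was called, and at both the interval also holds a fall of the island's size.

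At 25984973 on the reverse strand of the same fragment testis stood higher than every other tissue. It had 80 % (15 reads), and the others had 0 % in frontal cortex, 4.55 % in mammary parenchyma, 11.1 % in skeletal muscle, 32.4 % in lactating gland, 45.5 % in nucleated blood cells, 55 % in uterus and 60 % in rumen. The site was called higher against frontal cortex (q = 9.90e-06), mammary parenchyma (q = 8.58e-05) and skeletal muscle (q = 0.00219) by Fisher's exact test. On the opposite strand of the same CG, at 25984972, testis had 84.2 % and the others 33.3 % in skeletal muscle, 55.6 % in rumen, 90.5 % in uterus, 91.7 % in nucleated blood cells and 100 % in lactating gland. The forward cytosine was thus far above the reverse one in lactating gland, nucleated blood cells and uterus but not in testis, and the part of this strand difference in the calls was not tested. The forward site was chosen for mention after its values were seen. At 25984990 on the forward strand testis had 100 % (19 reads) against 43.6 % in uterus (q = 0.000276), 56.2 % in nucleated blood cells (q = 0.00307) and 57.1 % in skeletal muscle, and against 86.5 to 100 % in the other tissues read. On the opposite strand of this CG, at 25984991, testis had 87.5 % and uterus and nucleated blood cells 100 %, so the order of the called pairs was turned there. The part of the strand in these calls was not tested either.

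Farther to the left, 2 groups lay at the low levels of unmethylated islands in every tissue. From 25972797 to 25973198, 14451 bp from the edge, testis averaged 0.734 % over 31 sites and the others between 0.435 % (abomasum) and 3.00 % (nucleated blood cells). Testis was below the mean of the others at 24 of the 31 sites. Over the 23 sites that abomasum covered, testis had 0.387 %. From 25928890 to 25929166, 58483 bp away, testis averaged 5.30 % over 21 sites and the others between 1.59 % and 3.64 %. Abomasum was read at 6 of these sites, with 3.33 % against 2.34 % in testis. These differences are a few points in size, and no site of either group was called. A single site at 25936162, 51487 bp away, was at 0 % in testis (23 reads) and in the 4 other tissues read.

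Between these groups, the 4 sites from 25937786 to 25937818, 49831 bp from the edge, were highly methylated in testis. Testis had 95 % (55 reads a site), rumen 95.5 %, lactating gland 93.8 %, skeletal muscle 92.9 %, uterus 70.8 % and nucleated blood cells 58.3 %. Testis stood with the upper tissues, and blood and uterus apart below them. The calls here were both against nucleated blood cells, at 25937810 (98.2 against 55.6 %, q = 0.000404) and at 25937818 (90.9 against 50 %, q = 0.00547) by Fisher's exact test.

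On the right, the window held a second CG island of the study's list of differentially methylated islands, from 26008676 to 26011185, which was also chosen on these samples. Its 10 strand-matched sites lay in 1 fragment from 26009385 to 26009432. Testis averaged 84.7 % there. The other tissues had 42.3 % in lactating gland, 53.9 % in mammary parenchyma, 63.6 % in uterus, 66.9 % in skeletal muscle, 74.2 % in frontal cortex, 83.3 % in abomasum (5 sites), 85.0 % in rumen, 85.8 % in ileum and 89.8 % in nucleated blood cells. The 2 mammary libraries were the lowest, and testis belonged to the upper tissues. At the 3 sites nearest to the bta-mir-202 island, testis had 78.9 % at 26009385 forward, 83.3 % at 26009392 forward and 100 % at 26009393 reverse, and differed from the mean of the others by 10.1, 6.42 and 16.8 points. Of the 10 sites 0 were called lower in any pair and 1 was called higher, 26009406 on the reverse strand, with 88.2 % in testis and 34.6 % in lactating gland (q = 0.00826 by Fisher's exact test). Leaving out lactating gland ended this call, and the count was then 0.

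Beyond the second island, 25300 bp from the edge, 14 sites from 26013886 to 26013930 averaged 91.3 % in testis, the highest of the 9 tissues read. Ileum had 89.9 %, nucleated blood cells 88.7 %, uterus 79.2 %, lactating gland 77.3 %, frontal cortex 75.5 %, rumen 69.7 %, mammary parenchyma 65.6 % and skeletal muscle 58.3 % (3 sites). Testis was above the mean of the others at 14 of 14 sites and above every one of them at 6, and no site was called.

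**Figure D4:**
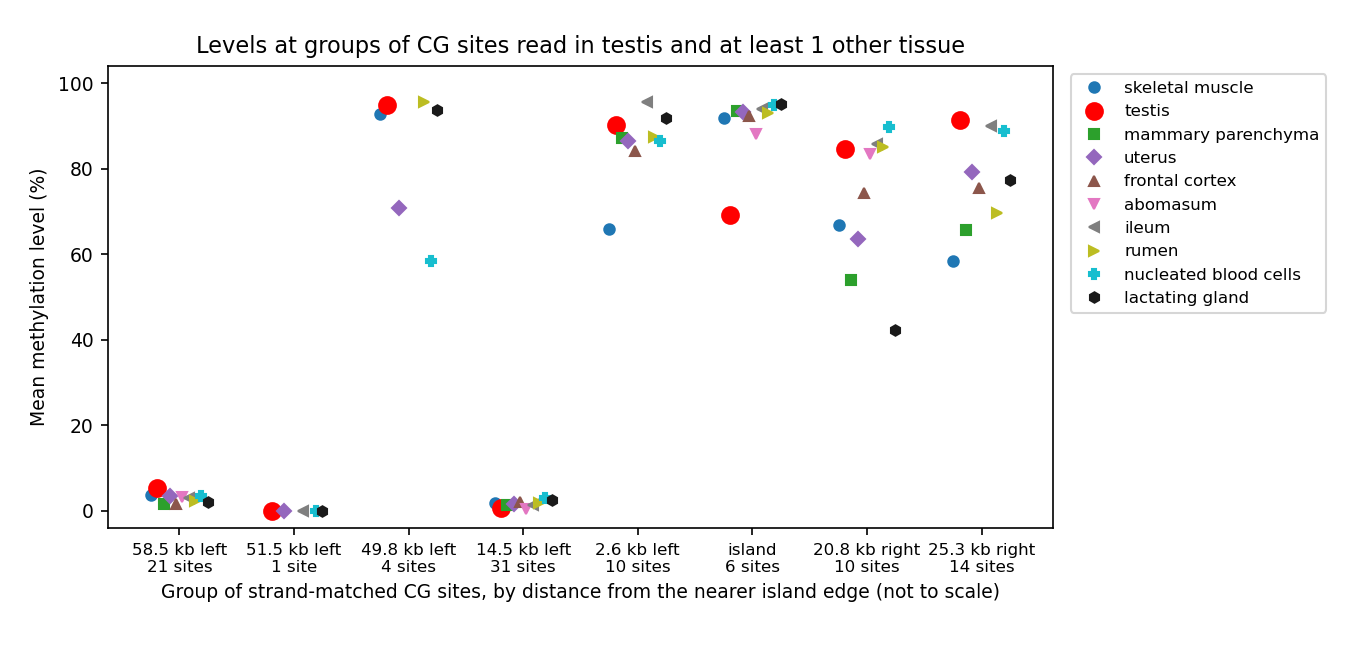
Mean methylation level (%) of each tissue (1 library each) over the 8 groups of strand-matched sites, from the farthest on the left of the island to the farthest on the right, with the distance from the nearer edge in kb. Testis (large red points) is the lowest tissue over the 6 island sites at 69.2 % and lies at 90.3 % in the nearest group on the left and 84.7 % in the nearest on the right.

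Averaged by distance, testis differed from the other tissues by 6.14 points over the 10 sites between 2 and 10 kb on the left (exact permutation test over the 9 tissues read, two-sided, p = 0.333), with testis above their mean at 5 of the 10 sites. Against the median of the other tissues the difference was 1.09 points (exact permutation p = 0.778). The single site 25984973 stood at 50.2 points, and the difference of skeletal muscle from the other tissues in this bin was -21.7 points. Between 10 and 30 kb on the left the difference was -1.13 points over 31 sites (exact permutation p = 0.3 over 10 tissues), and beyond 30 kb 4.11 points over 26 sites (exact permutation p = 0.2). On the right, where no tissue had a site beyond 30 kb, all shared sites lay between 10 and 30 kb, and the difference was 13.8 points over 24 sites (exact permutation p = 0.4). Over both sides it was 5.12 points over 91 sites (exact permutation p = 0.2), where the median over sites was 1.02 points. It was 2.38 points at a minimum of 20 reads and 3.29 points with sites weighted by reads. The adjusted exact permutation p was 0.4 for each of the 7 bins and sides tested. These are not separate results, since the right side and its bin are the same 24 sites and the sides contain the bins. With 10 tissues the smallest p that this exact permutation test can give is 0.1, so it cannot pass 0.05. On the right, nucleated blood cells stood above testis with 14.5 points, and mammary parenchyma was the lowest with -17.6 points. Over all 106390 strand-matched CG sites of the genome testis was lower than the others by 4.99 points on average (median -0.68).

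Sites read in testis alone have no other tissue beside them and enter no comparison. The 48 outside the island had a median of 53.3 %, and 20 of them were below 50 %, while the 130904 sites of the genome read in testis alone had a median of 45.5 %. The nearest of them lay 2968 to 4032 bp to the left of the island, beyond the closest shared fragment as seen from the island, with 44.4 % at 25984681 (9 reads), 36.4 % at 25984316 (11 reads), 18.8 % at 25984363 (16 reads) and a mean of 55 % over 4 sites from 25983603 to 25983617 (10 reads each). They were lower than the testis level of 90.3 % in that fragment. Whether other tissues have the same levels there was not tested, since none was read.

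Cytosines outside CG were low on average in the window. Their mean, which includes a few sites at high levels in many tissues, ran from 0.770 % in abomasum to 2.29 % in frontal cortex and was 0.853 % in testis. Within the island the mean was at most 0.993 % in any tissue.

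The 3 islands with the most similar pattern over the 10 tissues were chosen among 836 islands of the study's list, all with at least 5 CG sites in every tissue, by the Euclidean distance between the 10 levels. They were chr11:4021772-4022992 (distance 11.3 points), chr3:114013339-114014031 (11.6) and chr13:83053325-83054296 (12.6). Testis had 55.8, 52.5 and 57.2 % over these islands, and the lowest of the other tissues 88.0, 82.7 and 89.9 %, as the measure of likeness requires. None of the 3 had a strand-matched site within 2 kb of its edges. The first alone had any between 2 and 10 kb, 10 sites on its right, where testis had 97.5 % and the others 94.1 %. The other 2 could not be followed outward.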

How the data were processed

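RRBS libraries of 10 bovine tissues, 1 of each, were grouped by the tissue labels, with sex and stage from the study's sample list. The authors digested the DNA with *MspI*, collected fragments by length, trimmed the reads and aligned them uniquely to UMD3.1 by an adapted SOAPaligner pipeline. Per cytosine and strand, with a minimum of 8, the deposited read number is a count without normalization, and the level is a fraction deposited by the authors. Columns with the authors' p-values and FDR were not used. Whether positions filled in at fragment ends were removed is not given in the sources used here.

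Methylated reads were the level multiplied by the reads, a whole number within 0.001 reads at every cytosine. Means over sites were unweighted. Strand-matched sites were compared between testis and each other tissue by Fisher's exact test with Benjamini-Hochberg adjustment over all CG sites of a pair (q below 0.01, difference of at least 25 points). Bins of distance had limits of 2, 10 and 30 kb and were tested by exact permutation over tissues. Sites closer than 300 bp form 1 group. Sequences were joined from the deposited contexts of 5 bases. The mature miRNA sequence was not used here.

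The island, the window and the lists were chosen with earlier results of these data known. Sites named are those of the island read in testis, the 3 nearest strand-matched sites on each side and the called sites, with the 3 most similar islands. Others were named after their values were seen. The alternatives were minimums of 10 and 20 reads, a difference of 40 points, pooled strands, summed or median other tissues, weighting by reads, sites in at least 5 tissues and each other tissue left out.

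Calling was tested on simulated data for testis against uterus, 20000 sites at real coverage. It recovered 157 of 200 sites lowered by 60 points (78.5 %) and called 0 unchanged ones. A fall of the island's size, 23.7 points, was not simulated, so recovery at that size is not known. Scripts ran under Python 3.11.15 with pandas 2.3.3, NumPy 2.4.6, matplotlib 3.10.9, Numba 0.67.0 and SciPy 1.17.1, and seed 1.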

Additional observations from a re-analysis of the deposited data

Results flagged for a closer look

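Outside the CG comparisons, 5 cytosines in the window that are not followed by G were at 20 % or more in several tissues, against means of 0.770 to 2.29 % over all such cytosines. On the forward strand, 25973154 reached 100 % and was at 72.7 % or more in all 10 tissues. Another, 25985494, reached 100 % with at least 93.8 % in 6 tissues, and 25928852 reached 100 % with at least 72.7 % in 5 tissues. These 3 lie directly before a CCGG. The cytosine at 25937790 reached 96.4 % (rumen) and was at 66.7 % or more in 6 tissues, testis among them with 96.4 %. The last, 25958120, reached 96.6 % and was at 46.2 % or more in 7 tissues.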

How the results depend on the processing

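No site outside the island was called lower in testis under any of the 14 alternatives. Only pooled strands could have differed. The rest add no combination of site and tissue to the 727, of which 0 were lower by 25 points or more. Summed reads of the other tissues lie between their single levels. For the differences by distance, 0 of 55 alternatives changed sign (exact permutation p from 0.1 to 0.778 outside the island). The 55 include those of the island itself, which was chosen as low in testis. They also count the same 24 sites on the right both as a side and as a bin. The minimum of 5 tissues dropped no site. Against the median of the other tissues the difference fell in size from 1.99 to 1.08 points over the left side, from 6.14 to 1.09 between 2 and 10 kb there and from -1.13 to -0.72 between 10 and 30 kb. Over both sides it moved from 5.12 to 2.38 at 20 reads and to 3.29 weighted by reads. The 5 calls of higher testis outside the island became 1 of 55 sites with at least 20 reads (1.82 %, against 2.83 % over the genome). They became 9 of 62 with both strands pooled (14.5 against 2.92 %). Against the summed reads of all others there was 1 (1.10 against 0.649 %), also 1 in place of 0 for calls in every pair. Without nucleated blood cells there were 3 (3.30 against 2.26 %). In the second island the 1 call became 3 with strands pooled, 0 against the summed reads and 0 without lactating gland. The testis level over the island moved from 52.1 to 69.2 % over strand-matched sites and to 57.9 % without the last site read in testis alone. Over the genome, calls of lower testis fell from 11039 to 6550 sites at 40 points and to 6512 against the summed reads. Leaving out each single tissue other than abomasum and the last 2 values of the island level were chosen after seeing the data. At 20 reads the second island and the 2 to 10 kb bin on the left kept no site. Coverage of 15 to 20 testis reads in the nearest fragments limits each single level. No paired analysis was possible because each tissue is 1 library and the labels give no replicate numbers.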

Other observations

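Both strands of a CG were read in testis at 34 CGs of the window, and their levels differed by a median of 4.55 points and at most 87.5 points. Within the island, 4 tissues were read on both strands of the CG at 25988357. The forward cytosine had 100 % and the reverse one, at 25988358, 12.5 % in mammary parenchyma, 25 % in frontal cortex and 11.1 % in nucleated blood cells, and lactating gland had 75 % forward and 30 % reverse. Testis was read on neither strand there.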
